A study of Mus musculus with 6 samples.

Results

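Xirp1 and 6 structural genes of the muscle Z-disc (Actn2, Actn3, Ldb3, Myoz1, Tcap and Des) were followed across control, isometric and eccentric muscle. All probe sets that the platform annotation assigns to these symbols were used. They number 8 among the 12488 probe sets on the array, and the 7 genes are among 8251 genes with a probe set of their own. Actn3 has 2 probe sets and the other genes have 1 each. RNA came from the tibialis anterior, the large muscle at the front of the shin, of mice killed 48 h after exercise. The eccentric pool came from legs given 50 eccentric contractions, which stretch the muscle while it is active, and the isometric pool from legs given 50 isometric contractions, in which it is held at fixed length. The control pool came from opposite legs that received only the contractions needed to measure isometric torque. The labels do not say which exercise the animals behind the control pool had done with the other leg, and they name no strain, genotype, sex or age. Each group is a single pool of RNA from 4 animals that was divided over 2 Affymetrix MGU74Av2 arrays, A and B. The spread between those arrays is technical, so no p-value speaks for the effect of a contraction and differences between animals are not measured.

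The Z-disc is the plate at each end of a sarcomere where actin filaments of neighbouring sarcomeres overlap and are cross-linked. The alpha-actinins form the cross-links, titin is anchored there through its cap Tcap, and adaptors such as Ldb3 and Myoz1 bind alpha-actinin and bring in signalling enzymes. Desmin filaments tie neighbouring Z-discs to each other and to the cell membrane. Xirp1 (Xin) binds actin through a series of repeats, lies at myotendinous and cell junctions of striated muscle, and is known for appearing in damaged and regenerating fibres. Stretching an active muscle is known to disturb Z-discs more than contraction at fixed length does.

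Median signals were 187 to 197 on the 6 arrays, and 59.2% to 61.2% of probe sets lay above a floor signal of 120.8, the 40th percentile of all values. All 8 member probe sets were above that floor on every array. All 10 fibre markers, among them Ckm, Mb, Pvalb and Acta1, entered the comparisons. The arrays control A and isometric B had brighter 18S rRNA than their partners, and over the 6 arrays its geometric mean signal ran from 1761 to 23476. RNA quality was read from beta-actin probe sets at the gene's 3' and 5' ends, whose log2 ratio was 0.04 in the control, 0.20 in the isometric and 0.44 in the eccentric pool. The same ratio for Gapdh was -0.06, 0.10 and 0.12, with isometric B the highest array at 0.27. The part of these ratios in the results was not tested. A probe set was called when its pool means of log2 signals differed by 1 or more (2-fold). In addition, the 4 differences between single arrays of the pools had to point the same way. Folds, percentages and log2 differences between pools come from means of log2 signals, while printed mean signals are of linear values. Signals are linear deposited values, and signals of different probe sets were not set against each other, because probes differ in brightness. With 2 arrays per pool, their number limits the precision of every value.

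Xirp1 was the only member to pass the rule, and it did so in both comparisons that involve the eccentric pool. Its signal (probe set 102213_at) was 2251.0 and 2256.4 on the control arrays, 2087.5 and 2548.0 on the isometric arrays, and 10912.9 and 10393.2 on the eccentric arrays. Both eccentric arrays stood far above all other arrays, while the control arrays lay between the isometric arrays. The eccentric pool exceeded the control pool 4.73-fold, with 4.61-fold to 4.85-fold over the 4 pairings. It exceeded the isometric pool 4.62-fold, with 4.08-fold to 5.23-fold over the pairings. The isometric and control pools differed by 0.03 on the log2 scale, with pairings from -0.11 to 0.18, so their order is not settled beyond the spread of the arrays. limma, fitted on the 6 arrays across the probe sets that entered each comparison (7486 against the control and 7372 against the isometric pool), gave Xirp1 an adjusted p of 0.004 against the control and 0.008 against the isometric pool. That test compares these pools of RNA, not the conditions. In the bulk tissue a higher signal cannot be split into more RNA per fibre and more cells that express the gene.

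**Figure D1:**
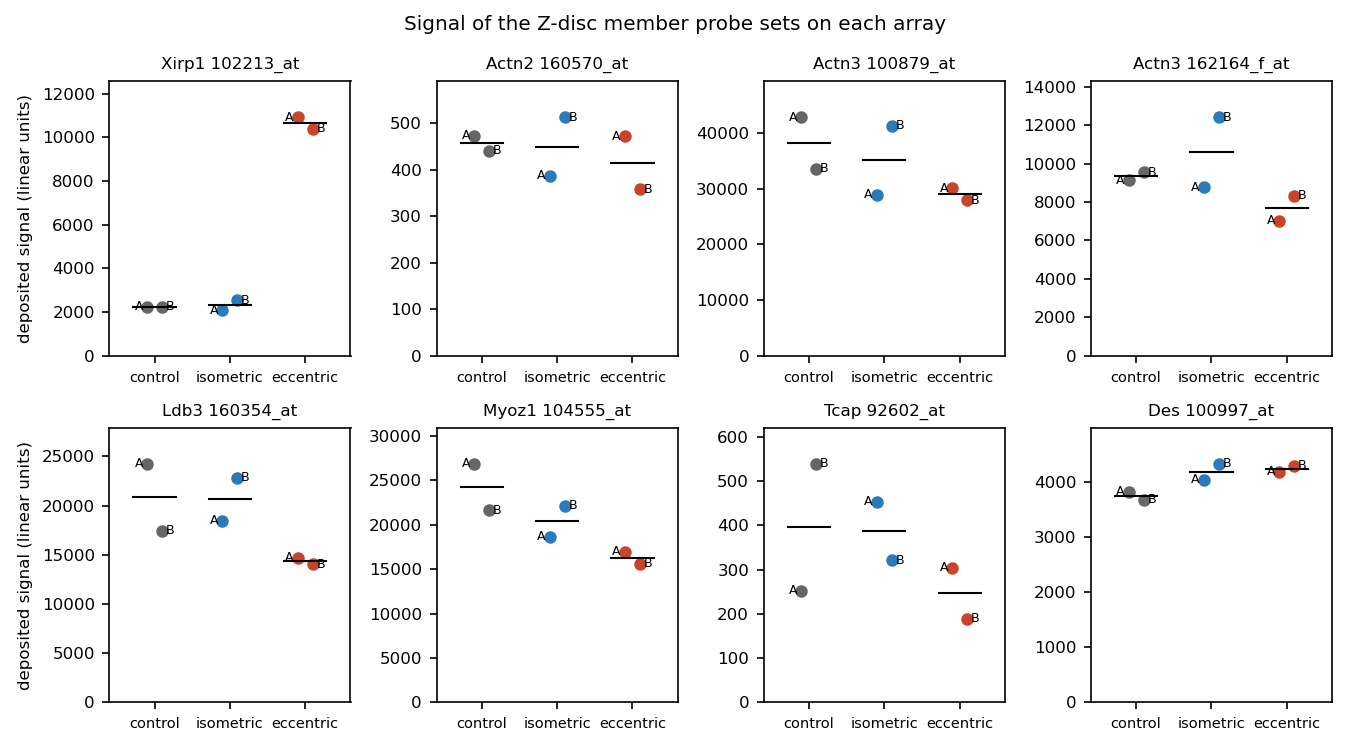
Deposited linear signal of each member probe set (one panel each, vertical axes from 0) on arrays A and B of the control, isometric and eccentric pools, with points for arrays and black lines for means of 2 arrays. Xirp1 stands at 10393.2 and 10912.9 on the eccentric arrays against 2087.5 to 2548.0 on the other arrays, and no other member shows a gap of that size.

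On the brightest probe set of each gene, macrophage markers were higher in the eccentric pool, as Xirp1 was. Few or no markers of the other cell types tested passed the rule there. Of 12 macrophage markers on the array 11 entered the comparison with the control pool. In the eccentric pool 9 of these were called higher, where 4.86% of the probe sets tested were. Their median log2 difference over the 11 was 1.64. Second probe sets of C1qb and Csf1r, above the floor on all 6 arrays, went the other way, at -0.62 and -0.28. That of Msr1, above the floor on 3 arrays, was at 0.90. The summed signal of the 12 markers was 6873 to 6990 on the control arrays, 11904 to 12492 on the isometric arrays and 19975 to 20088 on the eccentric arrays, and none of them lay below the floor on all 6 arrays. Between the isometric and control pools the 11 measured macrophage markers differed by 0.08 to 1.16 in log2, with a median of 0.65. Cd68, Lyz2 and Msr1, 3 of the 11, were called higher, where 0.913% of the probe sets tested were. Xirp1 differed by 0.03 there and was not called. Cd68 lost its call after quantile normalisation, at 0.96, and limma called 0 probe sets in that comparison. Against the isometric pool 5 of 11 markers were called higher in the eccentric pool, where 1.64% of the probe sets tested were. Of 8 markers of myogenic precursor cells on the array, Myf5 and Myh3 lay below the floor on all 6 arrays. The summed signal of the 8 was 3839 to 3952 in the control, 4183 to 4442 in the isometric and 5097 to 5373 in the eccentric pool. Myog, a transcription factor of differentiating myoblasts, was called among 6 measured markers, at a log2 difference of 1.09 that fell to 0.81 and lost its call without eccentric A. The part of these cells in the Xirp1 signal was not tested.

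Sequences upstream of the other members are shown for the 3 genes matched by symbol in RefSeq promoter windows of the GRCm38.p6 build, to give the regulatory setting of members that did not pass the rule. Xirp1, Actn3, Myoz1 and Tcap had no window in that table. Each window runs from 250 bases before to 50 bases after a start. It was searched on both strands for the E-box CANNTG, a general pattern that myogenic and other factors bind. Also searched were the MCAT element GGAATG or CATTCC, the letters TATAAA or TTTATA, the serum response factor box (CArG) and the MEF2 site. Capitals mark the matches, which did not overlap each other. Ldb3 has a further window that overlaps the one shown and holds the same CArG box.
Actn2, chr13:12340683-12340982, minus strand: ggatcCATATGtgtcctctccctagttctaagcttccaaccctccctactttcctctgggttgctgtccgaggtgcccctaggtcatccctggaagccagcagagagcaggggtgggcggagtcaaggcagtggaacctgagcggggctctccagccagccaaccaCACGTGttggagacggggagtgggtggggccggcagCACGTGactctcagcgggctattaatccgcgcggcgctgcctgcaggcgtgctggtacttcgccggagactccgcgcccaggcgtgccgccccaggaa
Ldb3, chr14:34588632-34588931, minus strand: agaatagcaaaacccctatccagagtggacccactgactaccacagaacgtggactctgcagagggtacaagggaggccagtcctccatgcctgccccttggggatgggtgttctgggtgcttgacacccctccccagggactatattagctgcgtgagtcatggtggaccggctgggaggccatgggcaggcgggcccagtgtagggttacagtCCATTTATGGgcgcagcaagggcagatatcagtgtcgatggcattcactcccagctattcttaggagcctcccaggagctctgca
Des, chr1:75360042-75360341, plus strand: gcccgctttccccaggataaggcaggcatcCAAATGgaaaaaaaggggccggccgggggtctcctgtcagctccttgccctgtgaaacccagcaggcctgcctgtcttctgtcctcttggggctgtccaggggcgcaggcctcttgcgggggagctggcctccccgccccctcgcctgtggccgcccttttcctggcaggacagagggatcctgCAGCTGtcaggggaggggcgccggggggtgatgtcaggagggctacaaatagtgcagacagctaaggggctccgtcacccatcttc

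Actn2 held 3 E-boxes and Des 2, and E-boxes occur in 72.3% of 32544 distinct windows. A CArG box, as in Ldb3, is found in 1.6% of windows. In Ldb3 its first base lies at -35 from the start of the window shown and at -109 from that of the further window. No window of the members held the MCAT element, the TATA letters or the MEF2 site, which occur in 14.6%, 13.6% and 3.2% of windows. A match describes the letters of the window and is not a site shown to be bound.

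The alpha-actinins, which cross-link actin in the Z-disc, did not pass the rule. Actn2 is the form found in all fibres and in the heart. Its signal was 473.4 and 441.5 in the control, 387.6 and 513.3 in the isometric and 472.6 and 358.9 in the eccentric pool. The arrays of the 3 pools overlapped, and the eccentric and control pools differed by -0.15 on the log2 scale with pairings from -0.40 to 0.10. Actn3 is the form of fast fibres, which make up most of this muscle. Its brighter probe set (100879_at) read 42829.9 and 33599.8 in the control, 28906.4 and 41341.9 in the isometric and 30123.3 and 27958.1 in the eccentric pool. The eccentric arrays lay below both control arrays but overlapped the isometric arrays, which were 1.43-fold apart. The mean was 23.5% lower in the eccentric than in the control pool, a log2 difference of -0.39. The second probe set of Actn3 (162164_f_at), whose suffix marks probes that can also match related sequences, read 9136.9 and 9541.0 in the control, 8779.3 and 12403.8 in the isometric and 7024.3 and 8320.3 in the eccentric pool. It too was lowest in the eccentric pool, with log2 differences of -0.29 against the control and -0.45 against the isometric pool, and no array of the eccentric pool reached either other pool. The probe sets differed in sign between the isometric and control pools, at -0.13 and 0.16, both within the spread of the arrays.

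Ldb3 and Myoz1, the alpha-actinin adaptors, had lower mean signals in the eccentric pool by less than 2-fold. Ldb3 (Cypher or ZASP) joins a PDZ domain that binds alpha-actinin to LIM domains that bind kinases. Its signal was 24241.6 and 17417.8 in the control, 18471.4 and 22843.1 in the isometric and 14674.9 and 14020.6 in the eccentric pool. Both eccentric arrays were below all 4 other arrays, and the control and isometric pools had nearly the same mean, 20830 and 20657. By means of log2 signals, the eccentric pool was 30.2% lower than each of the others, a log2 difference of -0.52 in both comparisons. Myoz1 (calsarcin-2) binds alpha-actinin and the phosphatase calcineurin in fast fibres. It read 26880.2 and 21667.9 in the control, 18663.0 and 22179.6 in the isometric and 16958.6 and 15602.5 in the eccentric pool. The eccentric arrays were again below all others, while the isometric arrays overlapped the control arrays. The eccentric pool was 32.6% below the control, a log2 difference of -0.57, and differed by -0.32 from the isometric pool. Neither gene passed limma, with adjusted p of 0.19 for Ldb3 and 0.11 for Myoz1 against the control.

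Of 10 fibre markers 0 were called between the eccentric and control pools, where 4.86% of probe sets tested were called higher and 1.11% lower. All 10 differences were below 0, with a median log2 difference of -0.28 and a range of -0.64 to -0.22. Their summed signal was 243842 and 305022 on the control arrays, 213587 and 301975 on the isometric arrays and 217164 and 224768 on the eccentric arrays. Among the 122 other probe sets with a mean signal above 10000, a limit set after the values were seen and applied whatever the gene, the median difference between the eccentric and control pools was -0.30, and 91 lay below 0. Those same probe sets were brighter on control A than on control B by a median log2 of 0.19 and dimmer on isometric A than on isometric B (-0.33). Quantile normalisation, which gives all arrays the same distribution of signals, reduced the eccentric against control difference to -0.13 for Actn3 (100879_at) and to -0.27 for Ldb3 and Myoz1. It took Myoz1 to -0.07 and Ldb3 to -0.32 against the isometric pool, and left Xirp1 at 2.32 and 2.29. The share of these lower signals that goes with the scale of bright signals was not tested.

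Tcap, the cap that joins the end of titin in the Z-disc, gave the least repeatable values of the members. Its signal was 252.5 and 539.4 in the control, 453.8 and 321.9 in the isometric and 304.0 and 189.0 in the eccentric pool. The control arrays were 2.14-fold apart and spanned both isometric arrays and eccentric A. The mean was lower in the eccentric pool, with log2 differences of -0.62 against the control and -0.67 against the isometric pool, but the pairings with the control ran from -1.51 to 0.27. Without control A the difference from the control pool became -1.17 and passed the rule, and without eccentric A the difference from the isometric pool became -1.02 and passed. Without control B the difference from the control pool shrank to -0.07. At these signals, a few times the floor, neither a fall nor its absence can be read for Tcap.

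Des encodes desmin, the intermediate filament that links Z-discs to one another. Its signal was 3834.4 and 3681.4 in the control, 4045.3 and 4339.2 in the isometric and 4194.1 and 4304.1 in the eccentric pool. Both exercised pools lay above the control on both arrays and overlapped each other. The eccentric pool exceeded the control by 13.1% and the isometric pool exceeded it by 11.5%, log2 differences of 0.18 and 0.16, and neither passed the rule. The eccentric and isometric pools differed by 0.02. Desmin is also made by smooth muscle and by myogenic precursors. Of 5 smooth muscle markers Cnn1 was below the floor on all 6 arrays, and the summed signal of the 5 was 3484 to 3671 in the control, 3952 to 4084 in the isometric and 3379 to 3513 in the eccentric pool. The part of those cells in the Des signal was not tested.

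Counted over the 8 probe sets, the eccentric against control comparison had 1 called higher and 0 called lower, where 4.86% of all 7486 probe sets tested were called higher and 1.11% lower. A further view is whether the arrays of the pools overlap at all. Xirp1 and Des, 2 of the 8, had both eccentric arrays above both control arrays, against 30.1% of the probe sets tested. The 2 probe sets of Actn3, Ldb3 and Myoz1, 4 of the 8, had both below, against 31.5% of the probe sets tested. The median log2 difference of the 7 probe sets other than Xirp1 was -0.39, with a range of -0.62 to 0.18, where the median of the probe sets tested was -0.03.

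The isometric against control comparison shares its control arrays with the one above. There 0 of the 8 probe sets were called in either direction, where 0.913% of the probe sets tested were called higher and 0.409% lower. limma called 0 of 7336 probe sets in this comparison, with 771 at an unadjusted p below 0.05, none of them a member. Des alone had both isometric arrays above both control arrays, as 18.5% of the probe sets tested did, and no member had both below, as 19.5% did. The median of the 8 differences was 0.02, with a range of -0.25 for Myoz1 to 0.16 for Des and the second probe set of Actn3.

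The eccentric against isometric comparison sets stretch against fixed length at the same number of contractions. Xirp1 was called higher, where 1.64% of the probe sets tested were, and 0 members were called lower, where 0.61% were. Xirp1 alone had both eccentric arrays above both isometric arrays, against 28.3% of the probe sets tested. The second probe set of Actn3, Ldb3, Myoz1 and Tcap, 4 of the 8, had both below, against 24.3%. The median of the 7 probe sets other than Xirp1 was -0.32, with a range of -0.67 to 0.02, where the median of all was 0.02.

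**Figure D2:**
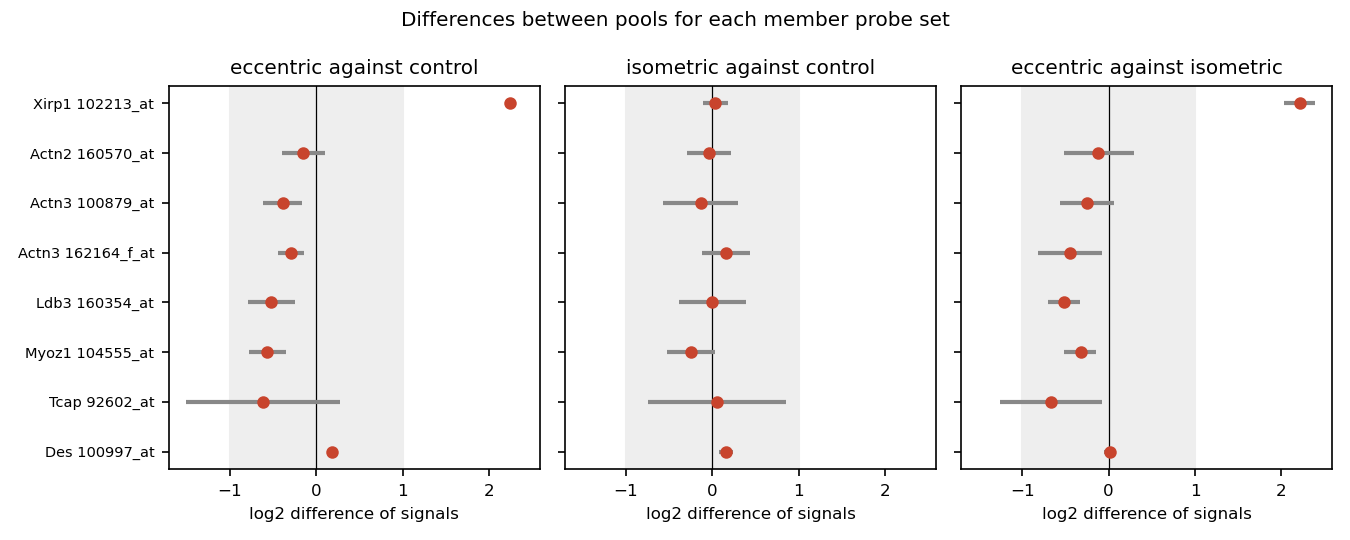
Log2 difference of signals between pools for each member probe set in the 3 comparisons, where red points are differences of pool means, grey bars span the 4 pairings of arrays, and the shaded band is the region of less than 2-fold. Xirp1 lies at 2.24 and 2.21 in the comparisons with the eccentric pool, every other member lies inside the band, and the bar of Tcap is the longest against the control.

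Other structural genes were compared in the same way, as lists. Of 20 partners of the Z-disc on the array, 5 were called higher in the eccentric than in the control pool. A further 1 was called lower and 14 were not called, with a median log2 difference of 0.18. Of the probe sets tested 4.86% were called higher and 1.11% lower. The list holds genes known from earlier work on these data, so its count is not independent evidence. Csrp3, a LIM protein of the Z-disc, was 5.74-fold higher, and the titin-binding ankyrin proteins Ankrd1 and Ankrd2 were 8.21-fold and 4.05-fold higher, beside 4.73-fold for Xirp1. Cryab, a small chaperone that binds desmin, was 2.97-fold higher on a probe set with the suffix for possible matches to related sequences, and its other probe set was below the floor. Pdlim3, which like Ldb3 joins a PDZ domain for alpha-actinin to a LIM domain, had 6665 ± 105 (SD, n = 2 arrays) against 3332 ± 476, a log2 difference of 1.01. Without control A its difference was 0.86 and without eccentric B 0.99, below the threshold, and limma did not call it. Its paralogue Pdlim7 had a difference of -0.38 and was not called. Ppp3cb, a catalytic subunit of the calcineurin that Myoz1 binds, was called lower at -1.15 with 423 ± 43.2 against 957 ± 271, but its difference was -0.86 and not called without control B, and limma did not call it. The other calcineurin subunits on the array, Ppp3ca and Ppp3r1, had -0.23 and -0.46. The largest differences among partners not called were -0.83 for Smyd1, 0.60 for Bag3, -0.60 for Capza2 and 0.57 for Capza1. Further probe sets of Smyd1 and Bag3 were at -0.56 and 0.44.

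Among genes of intermediate filaments and their linkers, which include relatives and partners of desmin, 11 were on the array and 6 entered the eccentric against control comparison. Of these 2 were called higher, where 4.86% of the probe sets tested were, and 4 were not called, with a median of 0.09. Nes, encoding nestin, which assembles with desmin in young and regenerating fibres, had 3308 ± 37.0 (SD, n = 2 arrays) against 829.5 ± 3.5, a 3.99-fold difference. Lmna, encoding the lamins A and C of the nuclear envelope, was 2.57-fold higher, while its second probe set differed by 0.50 in log2 and did not pass. Plec, the linker that holds desmin at the Z-disc, had a difference of 0.19 and Jup one of -0.14. Krt19 and Dsp were below the floor on all 6 arrays.

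Costameres join the outermost Z-discs to the membrane, and 0 of 15 measured genes of that list passed the rule. Of the probe sets tested 4.86% were called higher and 1.11% lower, so a count of 0 in a short list says little about its genes. The costamere list had a median of 0.03 and a range of -0.79 to 0.80. The integrin Itga7 was at the upper end, with 1721 ± 118 (SD, n = 2 arrays) against 985.6 ± 53.5. Dmd, encoding dystrophin, was at the lower end, with 108.2 ± 7.4 against 209.2 ± 27.9, and its eccentric mean lay below the floor of 120.8. Pxn was at -0.71 and Sgca at -0.52, with -0.74 on another probe set of Sgca. The non-muscle alpha-actinins Actn1 and Actn4 had differences of 0.45 and 0.60, and Actn4 had 737 ± 88.3 against 485.9 ± 52.0, neither called. Of thin and thick filament genes 0 of 11 were called, all 11 differences were below 0, and the median was -0.28, or -0.05 after quantile normalisation. Acta1, Tnnt3, Tnni2, Tnnc2, Myl1 and Mylpf are also among the fibre markers above, so the 2 lists repeat the same values in part. Of 4 measured genes in the M-band list Mybph alone was called, 4.74-fold higher. It encodes a myosin-binding protein of the thick filament. The M-band proteins Myom1 and Myom2 had -0.49 and -0.45 and were not called.

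Against the isometric pool the same 5 partners of the Z-disc, Csrp3, Ankrd1, Ankrd2, Cryab and Pdlim3, were called higher and 0 lower. Of the probe sets tested 1.64% were called higher and 0.61% lower. The median of the partners was 0.17, and Nes was 2.37-fold higher. Pdlim3 lost that call without isometric B, at 0.75, and limma did not call it. Mybph was called as well, 2.15-fold higher in the eccentric pool. limma with a block for the array letter did not call Ankrd1, Ankrd2, Cryab, Mybph or Nes against the isometric pool. Between the isometric and control pools 0 of 20 partners, 0 of 6 filament genes and 0 of 15 costamere genes were called. Their medians were -0.07, 0.12 and 0.07. Of the probe sets tested 0.913% were called higher and 0.409% lower, so these counts of 0 say little about the lists. Mybph was called there too, at a log2 difference of 1.14, and limma did not call it. Ankrd1 was at 0.85, and passed the rule at 1.24 when control B was left out.

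**Figure D3:**
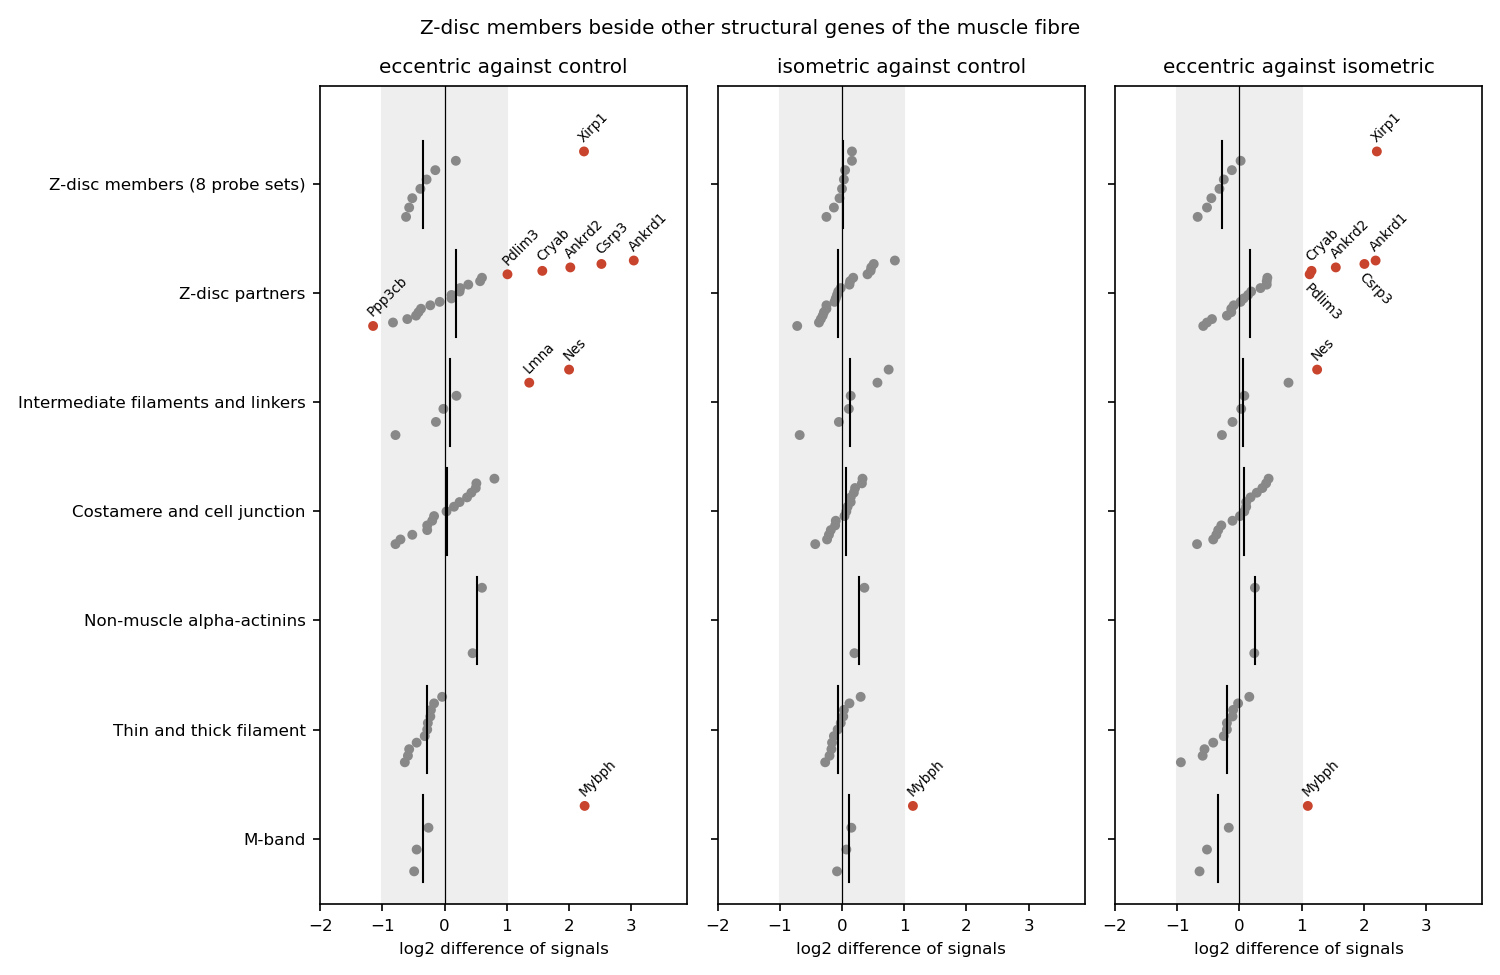
Log2 difference of signals for the 8 member probe sets and for the genes of 6 structural lists (1 probe set per gene, the brightest) in the 3 comparisons, where points are probe sets, red where called by the 2-fold rule with the gene named, vertical black lines are list medians, and the shaded band is the region of less than 2-fold. In the comparison with the control pool the called genes are Xirp1, 6 partners of the Z-disc, Nes, Lmna and Mybph.

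The pattern of Xirp1 over the 6 arrays was set against that of 4838 genes with signals above the floor on all arrays. Likeness was the distance between log2 signals after each gene's own mean was subtracted, and 0 would be the same pattern. The nearest was Cfp, encoding the complement factor properdin, at 0.27 log2 units. Its signal was 140.4 and 163.4 in the control, 143.3 and 186.9 in the isometric and 650.1 and 692.4 in the eccentric pool. Outside the eccentric pool these values lie close to the floor of 120.8. Next came Csrp3 at 0.59, the inducible chaperone Hspa1a at 0.66, Ms4a6c, a membrane protein of myeloid cells, at 0.67 and the chemokine Ccl9 at 0.69. The Ms4a6c probe set carries the suffix for possible matches to related sequences, and it too was near the floor outside the eccentric pool. Csrp3 and Ccl9 were above the control in the isometric pool, with log2 differences of 0.51 and 0.52, Hspa1a was below it at -0.58, and Cfp and Xirp1 were at 0.11 and 0.03. Further genes were looked up after their values were seen. Ankrd2 was at place 6, Nes at 9, Cryab at 15 and Ankrd1 at 17, while Mybph was at 34, Lmna at 65 and Pdlim3 at 107. The 6 arrays hold only 3 pools, so many genes that are high in the eccentric pool are close to each other by this measure.

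**Figure D4:**
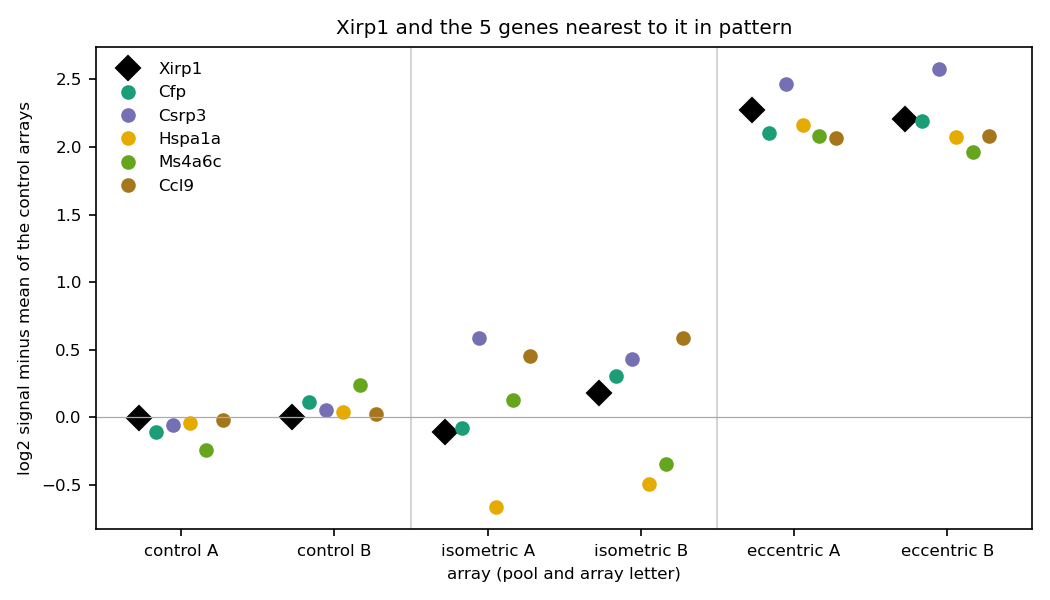
Log2 signal minus the mean of the control arrays for Xirp1 (black diamonds) and the 5 genes nearest to it in pattern (circles) on each of the 6 arrays. The genes lie together near 2 on the eccentric arrays and spread on the isometric arrays, where Hspa1a is lowest.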

How the data were processed

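For every array, the table deposited by the authors holds a linear intensity for each probe set. How it was made (software, background correction, probe summary) is not given in the sources used here. Probe sets were named from the platform annotation, with 1 gene for 10833, several for 396 and none for 1193 of the 12422 that are not Affymetrix controls. Gene IDs of 10817 were found in a RefSeq table of GRCm38.p6, which changed 0 symbols.

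Arrays were scaled to equal trimmed means (2% removed at each end), values below the 40th percentile were set to that floor, and log2 was taken. A probe set entered a comparison when the 2 arrays of either pool both exceeded the floor. The 2-fold rule was tested on simulated arrays with changes well above 2-fold, placed on probe sets well above the floor. How often it finds changes near 2-fold, or changes in signals near the floor, was not tested. For 13 gene lists (138 genes, 111 on the array) the brightest probe set of a gene was used. Named are all members, list genes that passed the rule with up to 4 others by size or for contrast, and the 5 genes nearest to a called member. Plec, Jup, Pdlim7, Ppp3ca, Ppp3r1, Actn1, Actn4, Myom1 and Myom2 were named for their relation to a member, after their values were seen. The members and lists were chosen with earlier results of these data known.

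Alternatives changed the scaling, floor, filter, threshold and arrays. limma with Benjamini-Hochberg adjustment at 0.05 was run across the probe sets that entered each comparison, with no block and with a block for the array letter. It measures spread between arrays only. Python 3.11.15, numpy 2.4.6, pandas 2.3.3, matplotlib 3.10.9, R 4.3.3 and limma 3.58.1 were used.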

Additional observations from a re-analysis of the deposited data

How the results depend on the processing

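Xirp1 stayed called higher in the eccentric pool under all 15 alternatives run, at log2 differences of 2.21 to 2.32 against the control and 2.06 to 2.35 against the isometric pool. It was called in 0 of 15 between the isometric and control pools, where the difference ran from -0.11 to 0.18. With 1 array left out, 1 to 2 members were called in each comparison with the eccentric pool, the second being Tcap, without control A or without eccentric A. Tcap was also the second member called against the control without control A and isometric B together (2 members), and against the isometric pool at a 1.5-fold threshold (2 members).

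The number of probe sets called depends on the floor and the threshold. In the order eccentric against control, isometric against control and eccentric against isometric, it was 868, 418 and 475 with the floor at the 20th percentile, 227, 31 and 82 at the 60th, and 1465, 491 and 925 at 1.5-fold, against 447, 97 and 166. For isometric against control it was 60 when all 4 arrays had to exceed the floor, 122 to 280 with 1 array left out and 206 without control A and isometric B. For eccentric against isometric it was 227 to 280 and 261. limma called 644, 0 and 67. Over the structural lists, 9, 1 and 7 of the 67 genes on the array were called. At 1.5-fold these were 18, 5 and 12. For isometric against control there were 2 with the lower floor, 1 to 3 with 1 array left out and 0 by limma.

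With the array letter as a replicate block limma called 323, 0 and 9 probe sets, 0 structural genes between the isometric and control pools and 1 (Csrp3) between the exercised pools. Xirp1 was called in both comparisons with the eccentric pool. The letters do not pair the arrays: differences of A from B correlated at 0.03, -0.10 and -0.04 between pools.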

Other observations

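Vim, encoding vimentin, the intermediate filament of connective tissue cells and leukocytes, had a mean signal of 296.9 ± 114.6 (SD, n = 2 arrays) in the control, 177.9 ± 6.6 in the isometric and 159.3 ± 92.4 in the eccentric pool. The eccentric and control arrays overlapped, and the log2 difference of -0.79 did not pass the 2-fold rule. Both isometric arrays lay below both control arrays, as 19.5% of the probe sets tested did, and the difference of -0.68 did not pass either. These Vim signals are close to the floor of 120.8.

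Of 5 fibroblast markers, on the brightest probe set of each, 0 were called between the eccentric and control pools. Of the probe sets tested 4.86% were called higher there and 1.11% lower. The 5 markers had a median of -0.08, with a range of -0.41 to 0.90. Pdgfra was at 0.90, but another of its probe sets was at -0.32. Col3a1 was at 0.57 and its other probe sets at 1.04 and 0.49, while further probe sets of Col1a1 and Col1a2 were at -0.19 and -0.39. Of 4 endothelial markers 0 were called, with a median of -0.03. Among 7 measured slow fibre markers Atp2a2 was called higher at 1.06, but one of its control arrays was below the floor and the call was lost without control A, at 0.87. The median of that list was -0.17. Of 4 measured smooth muscle markers 0 were called, with a median of -0.10.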
